A study of Mus musculus with 6 samples.

Results

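Imprinted genes are transcribed mainly from the copy inherited from 1 parent, and a group of them sets the pace of growth before birth. The group studied here has 10 members: H19, Dlk1, Peg3, Mest, Plagl1, Cdkn1c, Grb10, Peg10, Zim1 and Ndn. They were read from every probe set whose annotation names that gene and no other, which gave 25 of the 45037 probe sets of the array that are not controls, and 9 of 18193 named genes. H19 has no such probe set, because the 1 probe set that names it also names the microRNA gene Mir675, so no value is given for it.

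Whole lungs of mouse embryos at E18.5 were compared, with 3 arrays labelled GATA6 KO (KO 1 to KO 3) and 3 arrays labelled wild-type (WT 1 to WT 3). The series addresses gene regulation by GATA6, a DNA-binding factor of the lung epithelium, in fetal lung. The labels give neither the allele nor the promoter or cell type of the deletion, nor strain or sex, nor whether each array holds 1 embryo, so p-values measure only the spread between these arrays. The arrays are Affymetrix Mouse430_2 arrays, read as linear intensities and analysed as log2(intensity + 16), so that a probe set with no signal sits at a floor a little above 4 log2, and a probe set is called bright here where its mean over the arrays exceeds 5.30 log2, the median of all. All differences are KO minus WT on this scale, and with 3 arrays a label their precision is limited.

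In the embryo the paternally expressed members, among them Dlk1, Peg3, Mest and Plagl1, are mostly known for promoting growth, and the maternally expressed members, such as H19, Cdkn1c and Grb10, for restraining it. Silencing of 1 parental copy rests on DNA methylation that is set in the germ line and kept in the embryo with the help of the zinc finger protein ZFP57, which binds the hexamer TGCCGC when its CpG is methylated. Many members are abundant in fetal organs and decline after birth. The arrays do not tell the parental copies apart.

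3 promoters are shown from RefSeq (GRCm38.p6), since the results turn on their genes: Mest, with the largest difference among the brightest probe sets, Plagl1, whose probe sets disagree, and Peg3, whose start lies 164 bases from that of Usp29 on the other strand. Capitals mark TGCCGC or the CCAAT box bound by the factor NF-Y, on either strand, in the 250 bases before the start (for Peg3, the stretch between both starts).
Mest, chr6:30737800-30738049, plus strand, 1 of its 3 listed starts: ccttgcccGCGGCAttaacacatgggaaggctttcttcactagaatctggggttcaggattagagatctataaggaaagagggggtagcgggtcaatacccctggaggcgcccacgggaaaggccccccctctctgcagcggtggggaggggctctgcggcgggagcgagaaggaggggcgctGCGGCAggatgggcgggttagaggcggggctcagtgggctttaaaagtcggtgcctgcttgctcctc
Plagl1, chr10:13090582-13090831, plus strand: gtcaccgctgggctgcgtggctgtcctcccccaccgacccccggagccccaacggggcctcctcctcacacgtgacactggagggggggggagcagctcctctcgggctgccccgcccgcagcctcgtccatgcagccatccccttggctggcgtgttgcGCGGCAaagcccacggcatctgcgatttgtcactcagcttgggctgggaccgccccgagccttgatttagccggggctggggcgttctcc
Peg3, chr7:6730420-6730582, minus strand: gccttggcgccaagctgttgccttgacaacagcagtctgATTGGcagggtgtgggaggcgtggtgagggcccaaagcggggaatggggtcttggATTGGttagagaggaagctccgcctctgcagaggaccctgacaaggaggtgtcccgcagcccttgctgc
The Mest window held 14 CpG and 2 TGCCGC, the Plagl1 window 19 CpG and 1 TGCCGC, and the Peg3 stretch of 163 bases 5 CpG and 2 CCAAT boxes. The Mest start was picked for having the most CpG. Of its other starts, 1 gave the same counts in a window shifted by a few bases, and 1 had 7 CpG and 0 TGCCGC. The full 250 bases before the Peg3 start held 8 CpG. Of 32851 windows of 250 bases before a start in the table, 8.68% held TGCCGC and 33.8% held CCAAT, and the median window held 6 CpG. Of the 10 members, 7 had an entry, with 10 starts in all. The window before 1 of both Grb10 starts had 40 CpG, the most among the 10, and Zim1 also held 1 TGCCGC. A match in these windows is a description, and methylation and binding were not measured here.

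2 microRNA genes lie inside members by the same annotation: Mir675 in H19, which took H19 out of the values, and Mir335 in Mest. Their mature forms are shown with the seed, bases 2 to 8, in capitals.
mmu-miR-675-5p: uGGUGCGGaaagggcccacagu
mmu-miR-675-3p: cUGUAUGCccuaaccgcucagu
mmu-miR-335-5p: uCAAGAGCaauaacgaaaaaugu
mmu-miR-335-3p: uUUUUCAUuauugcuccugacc
The 4 seeds differ, and none of these mature forms was measured on the arrays.

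Across the array, 0 of 45037 probe sets passed an adjusted p of 0.05 in limma (Benjamini-Hochberg over all of them), which is 0%, and 1394 had an unadjusted p under 0.05. By gene, with the brightest probe set of each, 1 passed (0.0055%), and it is no member. On its brightest probe set Gata6 averaged 11.39 ± 0.19 log2 under the KO label and 10.60 ± 0.46 under the WT label (SD, n = 3 each). The difference was 0.79 (SE 0.25), 0.82 (SE 0.31) on the next brightest and 0.36 (SE 0.45) on the dimmest. Each KO array was above every WT array on all but the dimmest, with WT 1 close to KO 3. None passed (adjusted p = 0.963 in limma for each). Gata6 was thus higher, not lower, under the KO label. Whether its probes fall inside the deletion is unknown here, and the arrays are therefore named by their labels. Arrays KO 2, KO 3 and WT 1 stood apart from the other 3, irrespective of label. On a principal component that carried 45.1% of the variance over genes they scored 16.8, 29.9 and 23.1, against scores from -32.8 to -14.1 for KO 1, WT 2 and WT 3. The same 3 arrays had the highest signal of bright unnamed probe sets, meaning those that name no gene or several, relative to bright ones that name 1 gene. The values were -0.40, -0.04 and 0.30 log2 in KO 1 to KO 3, against 0.09, -0.36 and -0.36 in WT 1 to WT 3. The part of this composition in the results below was not tested except where a fit with it as a covariate is given. Fluidics station 1 handled WT 1 and WT 2, and station 2 handled the other 4 arrays. The 3 WT scans all precede the 3 KO scans, so scan order and label cannot be told apart.

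In whole E18.5 lung, 7 of the 9 measured members read well above the floor of the array in both groups. The differences of their brightest probe sets ran from -0.46 (Mest) to 0.27 (Dlk1), and none passed. Some intervals are wide, from -0.26 to 0.79 for Dlk1 and from -0.49 to 0.67 for Grb10. The lack of calls is therefore not a lack of difference. The 9 brightest probe sets differed by a median of 0.09 log2, KO minus WT, against 0.0025 over all 18193 genes. Of the 9, 6 were higher and 3 lower in the arrays labelled KO, where 10624 of all genes were higher and 7569 lower. Among bright genes 5 of 7 members were higher, where 5173 of 11245 genes were. None of the 25 member probe sets passed in limma. At an unadjusted p under 0.05 there was 1 of 25, Mest, where 3.1% of all probe sets and 5.06% of the bright ones reached it. In 3 of 25 the groups did not overlap, each lower in the arrays labelled KO, where the KO arrays lay below in 2.76% of all probe sets and the groups did not overlap in either direction in 8.48%. Of the 18 bright member probe sets 2 did not overlap, both with the KO arrays below, where 5.12% of bright probe sets had them below, 4.45% above and 9.57% either. The 3 are Mest, 1 of 5 probe sets of Peg3, and Zim1 near the floor. Leaving out 1 array at a time moved the median difference of the brightest probe sets between 0.0078 (without KO 2) and 0.076 (without KO 3); it was 0.0088 without KO 1, 0.016 without WT 1, 0.045 without WT 2 and 0.033 without WT 3. In bulk lung, fewer cells of a type and less RNA per cell cannot be told apart.

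**Figure D1:**
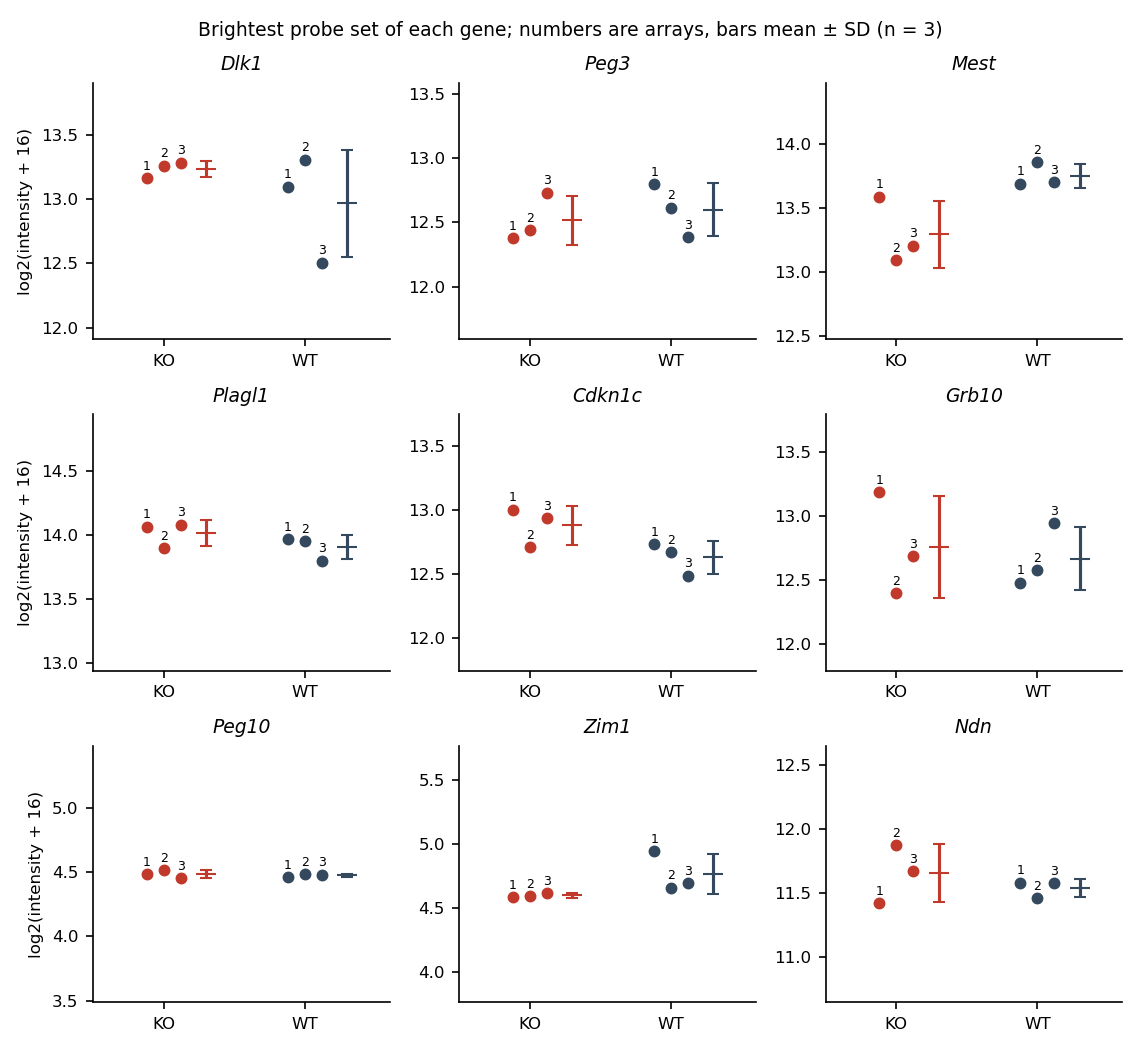
Log2(intensity + 16) of the brightest probe set of each of the 9 measured genes in the arrays labelled KO (left, red) and WT (right, blue), with array numbers, and mean ± SD beside them (n = 3 each); each panel spans 2 log2 units. Mest is the bright gene whose groups do not overlap, and Peg10 and Zim1 lie near the floor.

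Among the growth-promoting members, Mest, which encodes a hydrolase-like protein, differed most by brightest probe set. Its 1 probe set read 13.59, 13.09 and 13.20 log2 in KO 1 to KO 3, against 13.69, 13.86 and 13.70 in WT 1 to WT 3. Each KO array was lower than every WT array, with KO 1 close to the lowest WT array. Mest averaged 13.29 ± 0.26 under KO and 13.75 ± 0.09 under WT (SD, n = 3 each), a difference of -0.46 (SE 0.15), or 1.37-fold lower in the arrays labelled KO, which did not pass (adjusted p = 0.963 in limma). Its difference was -0.60 without KO 1 and -0.35 without KO 2, and -0.39 with composition as a covariate. The 95% interval, from -0.83 to -0.09, is for this gene alone and takes no account of the number of genes tested.

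Dlk1, a transmembrane relative of the Notch ligands that holds back fat cell differentiation, varied little among the KO arrays. On its brightest probe set it had 13.16, 13.26 and 13.29 log2 in KO 1 to KO 3, against 13.10, 13.31 and 12.51 in WT 1 to WT 3. WT 3 was low and the other 5 arrays lay close together, so that the difference of 0.27 (SE 0.21, adjusted p = 0.963 in limma) was 0.033 without WT 3 and 0.44 without WT 2. Within fluidics station 2, where WT 3 is the only array labelled WT, the difference was 0.73. The second probe set of Dlk1 read from 5.25 to 5.69 in the arrays labelled KO and from 5.26 to 5.31 in those labelled WT, little above the floor. The brightest carries the suffix s, so the second stands for Dlk1 where probe sets with suffix s or x are dropped. Its difference was 0.15.

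Plagl1, a zinc finger transcription factor known to regulate other imprinted genes, gave 3 probe sets that did not move alike. The brightest, which carries the suffix x, read 14.07, 13.90 and 14.08 log2 in KO 1 to KO 3, against 13.97, 13.95 and 13.80 in WT 1 to WT 3. That is a difference of 0.11 (SE 0.10) with an interval from -0.13 to 0.35; the difference was 0.055 without WT 3, 0.17 without KO 2 and 0.22 within station 2. The second brightest, with a mean of 8.92 log2 against 13.96 for the brightest, differed by -0.09 (SE 0.10). It stands for Plagl1 where probe sets with suffix s or x are dropped, so the direction depends on this choice. Both were among the steadiest readings of the group, with ranges of 0.28 and 0.25 log2 over the 6 arrays. The third and dimmest read 6.93, 8.57 and 9.05 in KO 1 to KO 3, against 7.73, 7.09 and 7.31 in WT 1 to WT 3. It was highest in KO 3, KO 2 and WT 1, the arrays with most signal on unnamed probe sets, and ranged over 2.12 log2. Its difference was 0.81 (SE 0.57, adjusted p = 0.963 in limma), 0.41 with composition as a covariate, 1.43 without KO 1 and 0.37 without KO 3.

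Peg3, a large zinc finger protein of the cell death and growth pathways, had small negative differences in all 3 of its bright probe sets, of -0.08 (SE 0.15), -0.16 (SE 0.08) and -0.13 (SE 0.11). The brightest read 12.38, 12.44 and 12.73 log2 in KO 1 to KO 3, against 12.80, 12.62 and 12.39 in WT 1 to WT 3, and the groups overlapped. The second brightest read 11.02, 10.97 and 11.03 in KO 1 to KO 3, against 11.24, 11.09 and 11.18 in WT 1 to WT 3. These groups did not overlap, though the difference is small and did not pass (adjusted p = 0.963 in limma). WT 1 was the highest array in all 3. The brightest probe set differed by 0.13 within station 2, higher in the arrays labelled KO, and by 0.016 without WT 1, so its direction is not settled. The other 2 probe sets of Peg3 lay at the floor, between 4.35 and 4.42 log2 in every array.

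Ndn encodes necdin, a MAGE family protein known from the imprinted Prader-Willi region. On its brightest probe set it had 11.42, 11.87 and 11.67 log2 in KO 1 to KO 3, against 11.58, 11.46 and 11.58 in WT 1 to WT 3, a difference of 0.12 (SE 0.13) that was 0.0078 without KO 2 and 0.23 without KO 1. The spread lay in the arrays labelled KO: KO 2 was the highest array in 5 of 5 bright Ndn probe sets and KO 1 the lowest in 4 of 5. The other 4 bright probe sets differed by 0.028 to 0.090, and all 5 intervals held 0. A further 3 probe sets of Ndn lay at the floor.

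Peg10, a gene derived from a retrotransposon and known for its part in the placenta, lay at the floor on its 1 probe set, which read 4.49, 4.51 and 4.46 log2 in KO 1 to KO 3, against 4.46, 4.48 and 4.48 in WT 1 to WT 3. No statement on Peg10 in lung can be drawn from a probe set at this level.

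Among the growth-restraining members, Cdkn1c, an inhibitor of cyclin-dependent kinases also called p57, was the more even. It read 13.00, 12.71 and 12.93 log2 in KO 1 to KO 3, against 12.73, 12.67 and 12.48 in WT 1 to WT 3. KO 2 lay just below WT 1 and otherwise the arrays labelled KO were the higher. The difference was 0.25 (SE 0.12), or 1.19-fold, with an interval from -0.04 to 0.54, and it did not pass (adjusted p = 0.963 in limma). It was positive in all 21 alternative fits, from 0.18 without WT 3 to 0.39 within station 2. Several of these fits, such as those that change only the moderation, leave the difference unchanged by construction. The station block and station 2 alone give the same value.

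Grb10, an adaptor that binds the insulin and IGF1 receptors and restrains their signal, gave 3 probe sets that followed different arrays. The brightest read 13.19, 12.40 and 12.69 log2 in KO 1 to KO 3, against 12.48, 12.58 and 12.95 in WT 1 to WT 3, a difference of 0.09 (SE 0.23). It turned to -0.12 without KO 1, to -0.0028 without WT 1 and to -0.19 within station 2, and was 0.27 without KO 2 and 0.23 without WT 3. The second brightest probe set read 8.74, 7.87 and 7.24 in KO 1 to KO 3, against 7.01, 8.31 and 8.64 in WT 1 to WT 3, and the third read 7.50, 8.07 and 8.16 in KO 1 to KO 3, against 8.21, 7.06 and 7.74 in WT 1 to WT 3. KO 3 and WT 1 were the lowest arrays of the second probe set and the highest arrays of the third. Their differences were -0.04 (SE 0.56) and 0.24 (SE 0.35), with intervals that reach beyond 1 log2 on at least 1 side, so these 2 probe sets leave the level of Grb10 forms undecided. The suffix a marks probe sets that match several transcripts of 1 gene, and the files do not say which forms each reads.

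Zim1, a maternally expressed zinc finger gene beside Peg3, lay near the floor. It read 4.59, 4.59 and 4.62 log2 in KO 1 to KO 3, against 4.94, 4.66 and 4.70 in WT 1 to WT 3. The groups did not overlap (difference -0.17, SE 0.08, adjusted p = 0.963 in limma), but at this level the value follows the pseudocount, at -0.39 with 1 and -0.060 with 64, it was -0.080 without WT 1, the highest array, and no fold is given.

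**Figure D2:**
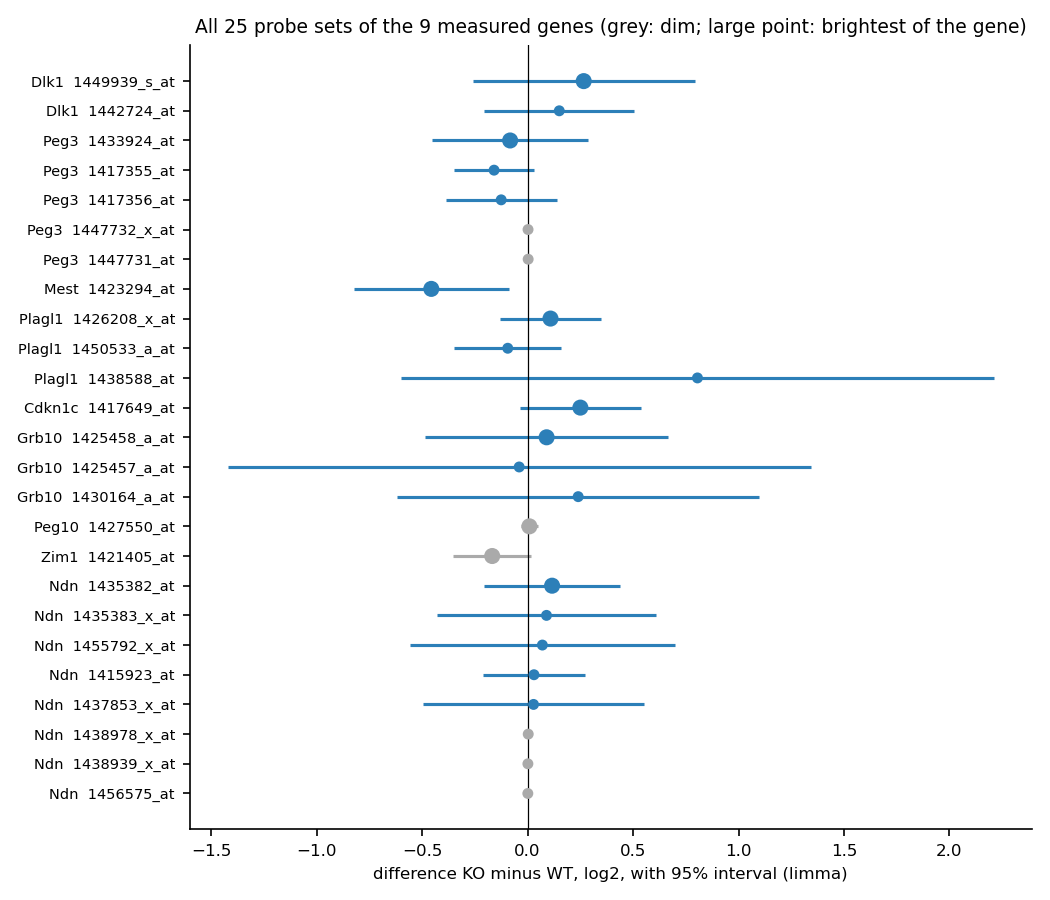
Difference KO minus WT in log2(intensity + 16) for all 25 probe sets of the 9 measured genes, with the 95% interval of limma; large points mark the brightest probe set of a gene and grey the 7 dim ones. The interval of Mest lies below 0, and the other intervals include 0; the widest belong to the third probe set of Plagl1 and the second of Grb10.

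**Figure D3:**
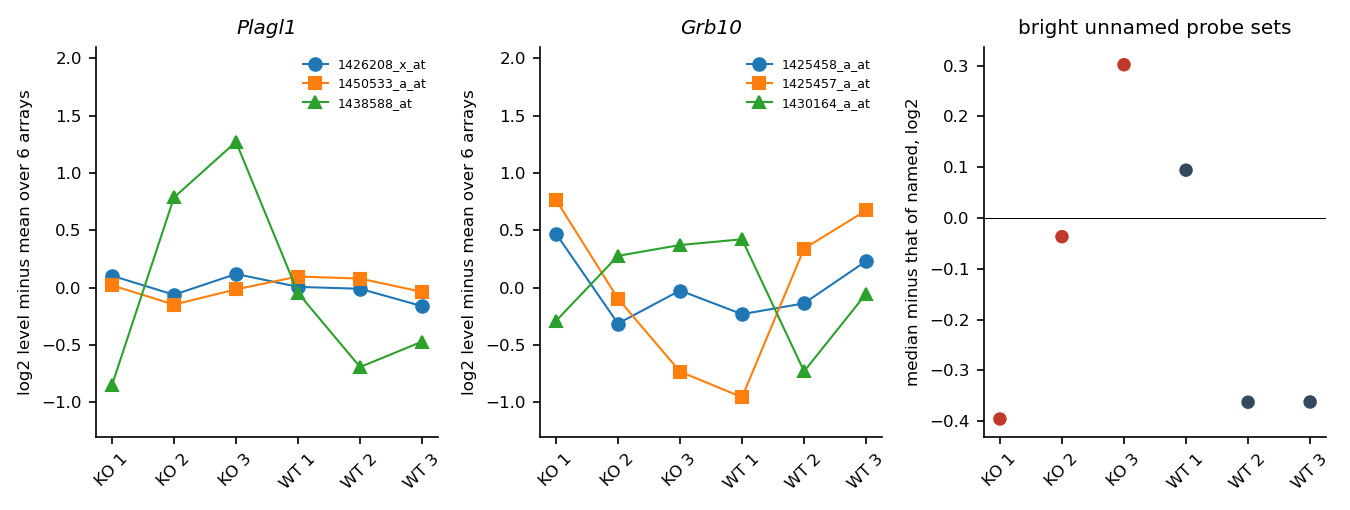
Levels of the 3 probe sets of Plagl1 (left) and of Grb10 (middle) in each array, as log2 minus the mean of that probe set over the 6 arrays. At right is how far the median bright unnamed probe set (naming no gene or several) lay above or below the median one naming 1 gene in each array (log2, red KO, blue WT). Lines only join the values of 1 probe set; the third Plagl1 probe set ranges over 2.12 log2 while the other Plagl1 probe sets stay within 0.28.

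Over the 6 arrays the 7 bright members ranged by 0.28 to 0.80 log2 on their brightest probe sets, with a median range of 0.51, against a median of 0.68 for the 11245 bright genes of the array. These members averaged 11.59 to 13.96 log2, while the bright genes include all above 5.30. Ranges were not compared at like brightness. For a fixed list of 40 other genes imprinted in mouse, at least in some tissue, 35 were measured and 26 were bright. Of the 35, 22 were higher and 13 lower in the arrays labelled KO, with a median of 0.05 log2, where 10624 of all 18193 genes were higher. Of the 26 bright ones 16 were higher, where 5173 of 11245 bright genes were. None passed in limma (3 had an unadjusted p under 0.05, against 4.3% of all genes), and the groups did not overlap in 3, against 9.7% of all genes. Those with the smallest p were Copg2 and Airn (higher) and Osbpl5 (lower, by -0.45, SE 0.17, and by -0.29 within station 2).

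Several neighbours of members within imprinted domains varied widely between arrays of the same label. In the Dlk1 domain the long noncoding RNA Meg3, expressed from the other parental copy, read 12.48, 14.15 and 14.42 log2 in KO 1 to KO 3, against 13.94, 12.68 and 11.90 in WT 1 to WT 3. KO 2, KO 3 and WT 1 were again the high arrays, as for the unnamed probe sets, and Meg3 ranged over 2.52 log2 where Dlk1 ranged over 0.80. The difference of Meg3 was 0.84 (SE 0.71, adjusted p = 0.963 in limma), 0.33 with composition as a covariate, 1.45 without KO 1, 0.37 without WT 3 and 1.78 within station 2. Kcnq1ot1, the noncoding RNA that silences genes around Cdkn1c in cis, read 8.25, 9.54 and 10.73 in KO 1 to KO 3, against 10.16, 8.17 and 8.48 in WT 1 to WT 3. Its difference of 0.57 (SE 0.79) turned to -0.05 with composition as a covariate and to -0.042 without KO 3. As a grouping made after the values were seen, the 5 bright noncoding imprinted RNAs (Airn, Meg3, Rian, Mirg and Kcnq1ot1) had a median range of 2.56 log2 and the 21 bright protein-coding ones 0.81. Of the 5, Meg3, Rian and Mirg all lie in the Dlk1 domain, so the 5 are not independent. The 2 sets overlapped, with ranges of 0.84 to 3.29 log2 for the noncoding and 0.19 to 2.46 for the protein-coding genes. These ranges are those of brightest probe sets, on which Airn had the smallest of the noncoding set and Igf2r the largest of the protein-coding set. The other probe sets of Airn ranged over 1.32 to 2.50 log2, and the second of Igf2r over 2.93.

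Igf2, the fetal growth factor that lies beside H19, read 13.12, 12.73 and 12.74 log2 in KO 1 to KO 3, against 12.70, 12.64 and 12.83 in WT 1 to WT 3. The groups overlapped and the difference was 0.14 (SE 0.13). It was 0.0097 without KO 1, the highest array, and 0.031 within station 2. Its receptor Igf2r, which clears the factor from the cell surface, read 8.89, 10.86 and 10.76 in KO 1 to KO 3, against 10.92, 11.36 and 11.27 in WT 1 to WT 3. Its groups did not overlap, by a narrow margin apart from KO 1, and the difference of -1.01 (SE 0.55, adjusted p = 0.963 in limma) was -0.37 without KO 1. On its second probe set the groups overlapped. Airn, the antisense RNA that represses Igf2r on the paternal copy, differed by 0.50 (SE 0.17) on its brightest probe set, by -0.06 on its second and by 0.44 to 0.79 on its other 3, and none passed.

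Copg2, a coat protein gene whose span shares 913 bases with that of Mest at their 3′ ends, had intensities of 1289, 1079 and 1188 in KO 1 to KO 3, against 779.8, 1008 and 916.7 in WT 1 to WT 3. Each KO array was higher than every WT array, opposite to Mest, and the log2 difference of 0.39 (SE 0.13) did not pass (adjusted p = 0.963 in limma). Sgce, the neighbour of Peg10 on the other strand, was bright and differed by 0.15 (SE 0.12), by 0.034 without WT 1, by 0.22 without WT 3 and by -0.0075 within station 2. Usp29, the neighbour of Peg3, lay at the floor on both probe sets. Gnas, an imprinted signalling gene, differed by -0.10 (SE 0.11) on its brightest probe set (-0.18 without KO 1, -0.042 without KO 3 and -0.0053 within station 2) and by -0.24 to 0.43 on its others.

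**Figure D4:**
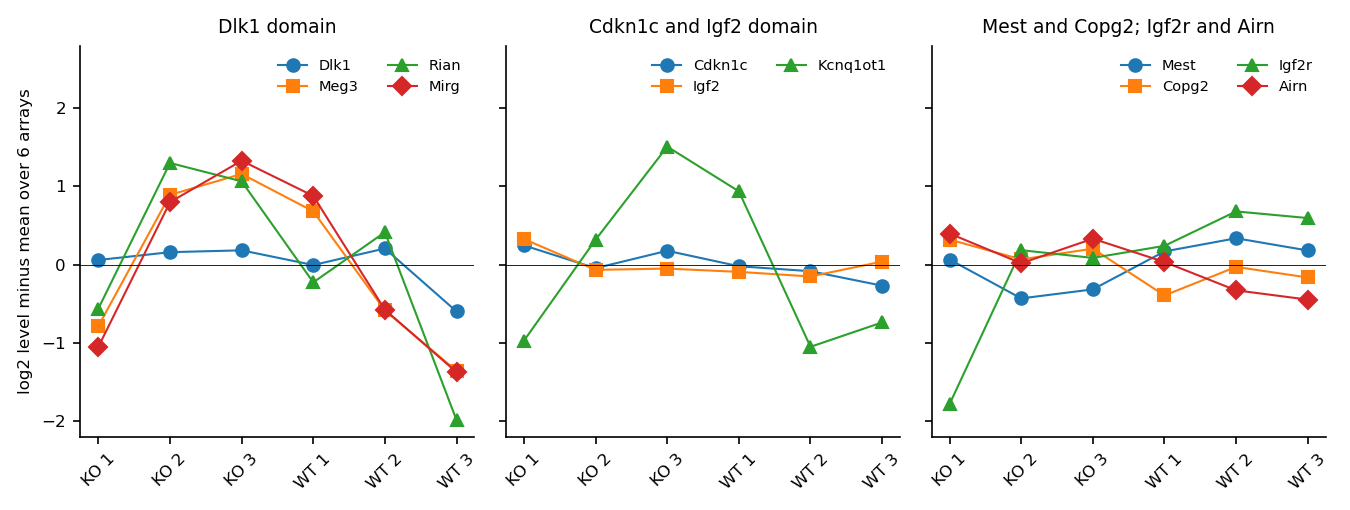
Brightest probe sets of members and neighbours of imprinted domains, as log2 minus the mean over the 6 arrays of that probe set; lines only join the values of 1 gene. Meg3, Rian, Mirg and Kcnq1ot1 spread widely over the arrays, across the labels, while Dlk1, Cdkn1c and Igf2 stay within 0.80 log2.

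Genes whose products act with those of Grb10 and Cdkn1c, or that belong to the fetal growth programme, gave no call either. Of 24 listed 22 were measured, 7 higher and 15 lower, with a median of -0.09 log2, and none passed in limma. All but 1 were bright, and 6072 of the 11245 bright genes of the array were lower. At an unadjusted p under 0.05 there was 1 of 22, where 4.3% of all genes reached it, and the groups did not overlap in 1 of 22, where 9.7% of all genes did not. Irs1, a substrate of the insulin and IGF1 receptors, differed by 0.37 (SE 0.18), by 0.20 without WT 1 and by 0.075 within station 2. Pcna, the sliding clamp of DNA replication, was in both counts and differed by -0.33 (SE 0.13), by -0.21 without WT 3 and by -0.56 within station 2.

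Markers of other tissues were read beside these values as summed intensities. All 7 lung mesenchyme markers were bright, with sums of 51750 to 67940 in the arrays labelled KO and 58760 to 66340 in those labelled WT, and 6 of 7 were lower. Beside this and the counts below, 6072 of the 11245 bright genes of the array were lower. Col3a1 and Tcf21 make up most of these sums. For Foxf1 (-0.73, SE 0.22) and Tbx4 (-0.33, SE 0.13) the KO arrays lay below every WT array, as in 5.12% of bright probe sets. The other mesenchyme markers overlapped. All 7 lung epithelial markers were bright too, with sums of 34190 to 79580 in the arrays labelled KO and 72080 to 80620 in those labelled WT, and 5 of 7 were lower. KO 1 had the low sum through Sftpc, which read 6700.46 there. Sftpc read 54629 and 42193.8 in KO 2 and KO 3, and 49613.8 to 56821.8 in the arrays labelled WT. KO 1 was not the lowest array for any other epithelial marker, and it was the highest for Epcam and Cdh1. Endothelial markers were lower in 4 of 4, with sums of 1858 to 3233 in the arrays labelled KO and 2439 to 4722 in those labelled WT. Markers of liver, a fetal tissue rich in H19 and Dlk1, were dim in 4 of 6, with sums of 166.4 to 1380 in the arrays labelled KO and 49.7 to 563.7 in those labelled WT, and skeletal muscle markers were dim in 6 of 7. Cardiac muscle markers, by contrast, were bright in all but 1 of 7, with sums of 4065 to 7916 in the arrays labelled KO and 4450 to 6420 in those labelled WT. Red cell markers were dim in 1 of 3 and lower in 3 of 3, with sums of 1081 to 2227 in the arrays labelled KO and 1730 to 4169 in those labelled WT. Markers of cartilage (3 of 4), neurons (3 of 4) and thymus (3 of 3) were mostly dim, and no marker passed in limma. The part of these markers in the members' values was not tested.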

How the data were processed

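RNA from E18.5 lungs was hybridised to 6 arrays of the Mouse430_2 type, 3 with the KO label and 3 with the WT label. The authors deposited 1 linear intensity per probe set and array; GCRMA and MAS5 appear in the submitters' processing notes, with no role or order. Quantiles of the arrays lay close together, so the values were taken as normalised to each other. Among 45101 probe sets, 64 were controls and not tested; 34945 carried 1 gene name, 932 several and 9160 none here.

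Intensities were analysed as log2(value + 16) with limma 3.58.1 in R 4.3.3 (lmFit, eBayes with trend), two-sided, fitted on all 45037 probe sets, with Benjamini-Hochberg adjustment over them. Every adjusted p comes from this fit, unless an alternative is named. A probe set is called dim where its mean over the arrays is at most 5.30 log2, the median of all; bright is the opposite. For composition, bright meant above 6.88, the median over genes, and unnamed probe sets were those that name no gene or several. The steps were tested on simulated data. The members and lists were chosen with earlier results of these data known. The genes named outside the members followed a fixed rule: Igf2, Igf2r, Meg3, Gnas, Sgce, Usp29 and Kcnq1ot1, and those with the smallest p per list. Rian, Mirg and the grouping of noncoding RNAs were added after their values were seen.

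Arrays with the same number did not deviate together (correlations of -0.613, 0.0971 and -0.311 over genes), so numbers were not taken as pairs. Alternatives covered pseudocount, scaling, probe set choice, dim filter, moderation, array weights, each array left out, number and station as blocks, and composition.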

Additional observations from a re-analysis of the deposited data

How the results depend on the processing

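No member probe set passed under any of the alternatives run, and none of the 23 single differences followed (9 members, the third probe set of Plagl1, Gata6 and 12 others) did. Of their 477 alternative values 453 kept their direction and 24 turned. Many of the 453 could not turn, since the dim filter, the moderation and the replicate block leave a difference as it is. The station block also repeats station 2 alone. The count is therefore no measure of stability. Mest stayed between -0.60 and -0.35 and Cdkn1c between 0.18 and 0.39 in 21 alternatives each, with the lowest adjusted p for either 0.517 (array weights). With the replicate block the members' median stayed 0.09 and 0 probe sets passed, so it changed no call. Over the whole array 1 probe set passed with median centring, 1 with 1 probe set per gene, and 37 with station as a block (0 within station 2), where 1 array stands for WT. The members' median was 0.0097 with array weights and 0.0087 when probe sets with suffix s or x were dropped, and ran from 0.0078 to 0.076 with 1 array left out. With 1 array left out Grb10 ran from -0.12 to 0.27, Peg3 from -0.19 to 0.016, Peg10 from -0.0059 to 0.023, Usp29 from -0.0087 to 0.017 and Kcnq1ot1 from -0.042 to 1.20. Blocking on station, or using station 2 alone, turned Peg3 to 0.13, Grb10 to -0.19, Sgce to -0.0075 and Usp29 to -0.0047. Median centring turned Peg10 to -0.025 and Usp29 to -0.032, quantile normalisation turned Usp29 to -0.0054, array weights turned Dlk1 to -0.032 and the composition covariate turned Kcnq1ot1 to -0.051. Without s or x probe sets Plagl1 was -0.094 and Gnas 0.43, and as a mean of all probe sets Gnas was 0.051. The cause of these turns was not tested. Values near the floor (Peg10, Zim1, Usp29) are limited by signal over background.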

Other observations

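The mean of the 9 members' brightest probe sets, each centred on its own mean, moved by 0.144 log2 in all over the 6 arrays: 0.06, -0.07 and 0.03 in KO 1 to KO 3, against 0.04, 0.02 and -0.09 in WT 1 to WT 3. The genes that followed this near-flat profile most closely, of 9089 brighter genes outside the group, were Krit1 (Pearson r = 0.985, Spearman rho = 0.886), Tug1, a long noncoding RNA (0.973 and 0.829), Zfp395 (0.959 and 0.886), S100pbp (0.959 and 0.943) and Nudt4 (0.947 and 0.943). These are descriptions over 6 arrays that share 1 hybridisation day, and 14 genes had r above 0.9. Krit1 read 8.76, 8.46 and 8.71 log2 in KO 1 to KO 3, against 8.79, 8.75 and 8.42 in WT 1 to WT 3, low in KO 2 and WT 3 alike.

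KO 1 was the lowest array for Igf2r, and its second probe set also read 6.92 log2 there, against 9.23 and 9.18 in KO 2 and KO 3 and 9.05 to 9.86 in the arrays labelled WT. KO 1 was also the lowest array in 4 of 5 bright Ndn probe sets and the highest for Igf2 and for the brightest Grb10 probe set.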
